A study of Mus musculus with 8 samples.

Results

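The zinc finger factor Zfp521, its paralog Zfp423 and the early B-cell factors Ebf1, Ebf2 and Ebf3 were followed in mouse dental papilla cells with and without the Bmp2 gene. These 5 genes were found by their symbols among the 22609 symbols of the count tables, and they were chosen by their counts in both genotypes, in particular the higher Zfp521 in the knock-out cells. Their differences between the genotypes are therefore given as a description, without a test. Of the 5, 4 passed the filter on low counts and were among the 13121 genes tested, and Zfp423 did not pass.

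The 2 groups were iBmp2fx/fx cells, an immortalized line with floxed Bmp2 alleles, and iBmp2ko/ko cells, a line from which Bmp2 was deleted. One library of total RNA was sequenced per genotype at 6, 24, 48 and 72 h of culture, which gave 4 libraries per genotype. The sources used here do not say whether each line is 1 clone. With 1 line per genotype, the deletion of Bmp2 cannot be told apart from other differences between the lines. Group values are over the libraries of 6, 48 and 72 h (n = 3 per genotype), the times named in the study's methods, and the 24 h libraries are given apart. The culture times served as replicates, so that the spread between libraries includes any change with time, and p-values measure only the spread between these libraries. In bulk RNA, fewer cells of a type and less RNA per cell cannot be told apart.

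The depth was 25890110 to 32415665 reads on genes in each library. For Bmp2, 1 read was counted in iBmp2fx/fx cells at 24 h and 0 elsewhere, so the targeted gene could not check the labels. The 24 h library labelled iBmp2ko/ko stood apart from the others of its group, and lay nearer to the iBmp2fx/fx mean for Zfp521, Ebf2 and Ebf4. For Ebf1 it was nearer to that mean on the log2 scale but not in CPM. For Zfp423 it lay within the iBmp2ko/ko range, and for Ebf3 within the ranges of both groups. Summed markers of dental mesenchyme were 5970 to 6212 CPM (a gene's reads per 1M reads of the library after TMM scaling) in the iBmp2fx/fx libraries and 8177 to 11675 CPM in the iBmp2ko/ko libraries. Col1a1, Vim and Col3a1 carried most of this sum. The dental mesenchyme factors Dlx2 (log2 fold change -2.55), Dlx1 (-0.997) and Msx1 (-0.79) had the opposite direction, and with culture time as a block edgeR called Dlx2 and Dlx1 lower and Col3a1 higher. Msx2 (-0.47), Lhx6 (-0.36), Twist1 (-0.30) and Prrx1 (-0.16) had lower values too, and Pax9 (0.53) a higher one. The median over the 11 tested genes of this list was -0.30. Of the mesenchymal markers, Lhx8 and Barx1 had at most 1 count in any library. The odontoblast genes Dspp and Dmp1 had at most 1 and 8 counts.

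Zfp521 and Zfp423 are large nuclear proteins with many zinc fingers, and both bind Ebf proteins. Zfp423 also joins the Smad proteins that carry the BMP signal into the nucleus. In mesenchymal cells, Zfp423 is known as a factor of the preadipocyte that acts before Pparg. Zfp521 is known as a repressor that recruits the NuRD complex, opposes Ebf1 and Runx2, and holds back fat formation. The Ebf proteins bind DNA as dimers through a shared domain. Ebf1 is required for B lymphocytes and acts in fat and bone cells, Ebf2 marks brown fat precursors and immature osteoblast progenitors, and Ebf3 is found in bone marrow stroma and neurons. Ebf4 is the remaining paralog and was measured beside them as a gene outside the chosen set.

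The start regions of the Ebf genes are shown to set 2 paralogs with lower levels in the knock-out cells (Ebf4, Ebf1) beside one whose groups overlapped (Ebf3). The 250 bases before a RefSeq start (GRCm38.p6) were available for 4 of the 6 genes. Capitals mark GGCGCC, the letters of a GC-rich element bound by Smad1 in the Id1 gene, which reads the same on both strands. The consensus palindrome of Ebf dimers, also the same on both strands, was searched as well and was in none of the windows of these 4 genes. The windows shown are chr2:130295689-130295938 (plus strand) for Ebf4, chr7:137314446-137314695 (minus strand) for Ebf3 and chr11:44619978-44620227 (plus strand) for 1 of the 2 Ebf1 starts.
Ebf4: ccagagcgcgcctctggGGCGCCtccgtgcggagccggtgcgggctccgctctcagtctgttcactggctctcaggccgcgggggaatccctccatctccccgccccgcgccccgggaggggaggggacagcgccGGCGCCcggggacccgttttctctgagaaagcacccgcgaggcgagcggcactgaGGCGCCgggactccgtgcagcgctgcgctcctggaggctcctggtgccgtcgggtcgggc
Ebf3: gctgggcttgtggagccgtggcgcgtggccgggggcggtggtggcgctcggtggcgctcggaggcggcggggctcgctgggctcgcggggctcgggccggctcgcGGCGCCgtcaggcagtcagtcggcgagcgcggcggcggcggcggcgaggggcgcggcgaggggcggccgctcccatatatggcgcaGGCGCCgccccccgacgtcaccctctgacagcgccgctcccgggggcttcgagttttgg
Ebf1: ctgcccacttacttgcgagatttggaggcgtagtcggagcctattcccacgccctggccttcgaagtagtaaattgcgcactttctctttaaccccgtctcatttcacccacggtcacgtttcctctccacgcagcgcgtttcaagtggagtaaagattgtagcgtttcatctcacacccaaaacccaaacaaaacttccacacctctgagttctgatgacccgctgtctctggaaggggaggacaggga
The Ebf4 window held 3 and the Ebf3 window 2 copies of GGCGCC, with a GC content of 75.2% and 80%. The Ebf1 windows and both Zfp423 windows held none. GGCGCC was in 9.59% of all 32851 windows of this length, and in 46.2% of the 1285 windows at least as GC-rich as that of Ebf4. The Ebf palindrome was in 0.779% of all windows. A match is a description of these letters and not a binding site. Zfp521 and Ebf2 were not matched.

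Zfp521 (chr18:13845522-14131242 of mm9, minus strand) had levels of 0.502, 0.527 and 0.621 CPM in the iBmp2fx/fx cells of 6, 48 and 72 h. In the iBmp2ko/ko cells they were 17.3, 13.2 and 9.71 CPM. The groups did not overlap, and the lowest iBmp2ko/ko library lay far above the highest iBmp2fx/fx library. The means were 0.550 ± 0.0631 and 13.4 ± 3.82 CPM (SD, n = 3), or a log2 fold change of 4.60 (SE 0.36) or 24.3-fold. This was rank 22 from the highest among the 13121 genes tested. The iBmp2fx/fx levels rested on 16 to 19 reads per library, against a floor of 3 counts that corresponds to 0.0925 to 0.116 CPM. These floors and all intervals below cover counting error only.

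At 24 h, Zfp521 was at 0.639 CPM in the iBmp2fx/fx library and at 1.28 CPM in the library labelled iBmp2ko/ko. The latter lay outside the range of both groups. The ratio of the genotypes was 34.6 in the 6 h pair (95% exact interval 21.1 to 60.9), 25.1 in the 48 h pair (15.5 to 43.5) and 15.6 in the 72 h pair (9.78 to 26.4). At 24 h it was 2.00 (1.10 to 3.75), higher in the knock-out line as at the other times but outside their intervals. Over all 8 libraries the log2 fold change was 4.18 (SE 0.69).

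**Figure D1:**
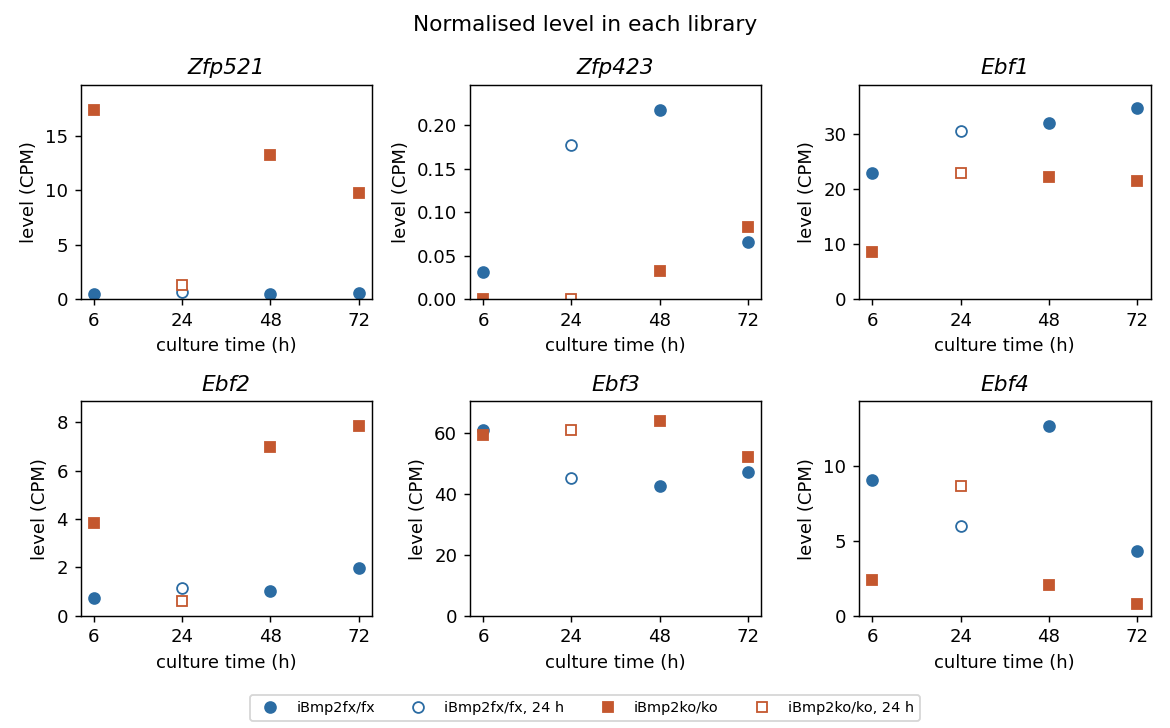
Normalised level (CPM, linear axis from 0) of Zfp521, Zfp423, the Ebf genes and Ebf4 against culture time (h, evenly spaced labels), 1 point per library, with iBmp2fx/fx as circles, iBmp2ko/ko as squares and the 24 h libraries open. Zfp521 lay at 9.71 to 17.3 CPM in the filled iBmp2ko/ko points, against 0.502 to 0.621 CPM in the filled iBmp2fx/fx points, and the open iBmp2ko/ko point at 1.28 CPM.

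Zfp423 (chr8:90185709-90483494, minus strand), the Smad and Ebf partner, was barely detected. It had 1, 5, 7 and 2 reads in the iBmp2fx/fx cells at 6, 24, 48 and 72 h, and 0, 0, 1 and 2 reads in the iBmp2ko/ko cells. At 6, 48 and 72 h together this was 10 against 3 reads, a ratio of 0.332 with an exact 95% interval of 0.0587 to 1.29. The interval is given as a description of these counts. Zfp423 was near the floor of 3 counts in both lines.

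Ebf1 (chr11:44430819-44821593, plus strand) was lower in the knock-out cells. Its levels at these 3 times were 22.8, 31.9 and 34.6 CPM in the iBmp2fx/fx cells. The iBmp2ko/ko cells had 8.57, 22.1 and 21.5 CPM. The groups did not overlap, although the lowest iBmp2fx/fx and the highest iBmp2ko/ko library were close, and the 6 h library was the lowest of each group. The means were 29.8 ± 6.19 and 17.4 ± 7.65 CPM (SD, n = 3), with a log2 fold change of -0.79 (SE 0.37). Without the iBmp2ko/ko library of 6 h it was -0.47. At 24 h the levels were 30.5 and 22.8 CPM. The library labelled iBmp2ko/ko lay at the lower edge of the iBmp2fx/fx range (22.8 CPM) and close above the highest iBmp2ko/ko library (22.1 CPM).

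Ebf2 (chr14:67852129-68048604, plus strand) was higher in the knock-out cells. The iBmp2fx/fx levels were 0.753, 1.02 and 1.99 CPM in the same order of times. The iBmp2ko/ko levels were 3.83, 6.97 and 7.85 CPM. Every iBmp2ko/ko library of these times was above every iBmp2fx/fx library, and the 72 h library was the highest of each group. The means were 1.26 ± 0.653 and 6.21 ± 2.11 CPM (SD, n = 3), or a log2 fold change of 2.29 (SE 0.47) or 4.88-fold. At 24 h the order was the opposite, with 1.17 CPM in the iBmp2fx/fx library and 0.600 CPM in the library labelled iBmp2ko/ko, a ratio of 0.512 (95% exact interval 0.263 to 0.958). That library lay below the range of both groups.

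Ebf3 (chr7:144385356-144506128, minus strand) was the most abundant of these genes. In time order it had 61.1, 42.7 and 47.4 CPM in the iBmp2fx/fx cells, and 59.3, 64.1 and 52.1 CPM in the iBmp2ko/ko cells. The groups overlapped. The means of 50.4 ± 9.58 and 58.5 ± 6.04 CPM (SD, n = 3) differed by 0.21 on the log2 scale (SE 0.20). Among the genotype ratios, that at 6 h was 0.971 (95% exact interval 0.910 to 1.04) and that at 48 h was 1.50 (1.40 to 1.61). At 24 h Ebf3 was at 45.1 and 60.9 CPM.

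Of the 4 members tested, 3 had groups that did not overlap, Zfp521 and Ebf2 above and Ebf1 below. Over all genes tested, 20% did not overlap, 9.92% with the iBmp2ko/ko libraries above and 10.1% below. The genotype difference was part of how the members were chosen, and nothing is read from this count. With culture time as a block, the log2 fold changes were 4.57 (SE 0.28) for Zfp521, -0.87 (SE 0.18) for Ebf1, 2.34 (SE 0.25) for Ebf2 and 0.22 (SE 0.14) for Ebf3. In that fit 8.45% of all genes passed the adjusted limit of 0.05 with a log2 fold change of at least 1 in size.

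**Figure D2:**
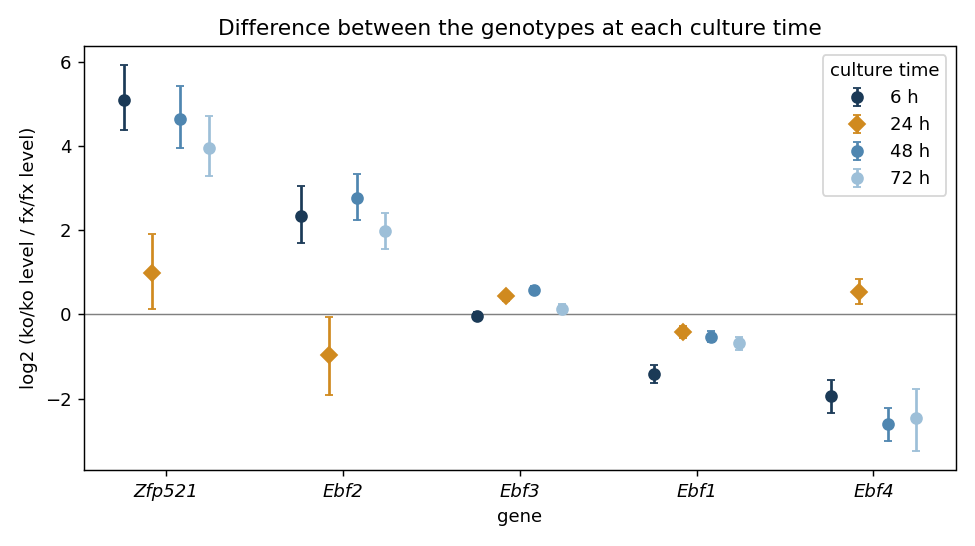
Difference between the genotypes (log2 of the iBmp2ko/ko over the iBmp2fx/fx level) for each gene at each culture time, 1 library per genotype, with exact 95% intervals that cover counting error only. The 24 h diamonds lay nearer to 0 than the circles for Zfp521, and on the other side of 0 for Ebf2 and Ebf4.

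Ebf4 (chr2:130120905-130196217, plus strand), the paralog outside the chosen set, was tested. At 6, 48 and 72 h its levels were 9.06, 12.6 and 4.35 CPM in the iBmp2fx/fx cells, and 2.36, 2.07 and 0.785 CPM in the iBmp2ko/ko cells. These groups did not overlap. The means were 8.68 ± 4.16 and 1.74 ± 0.838 CPM (SD, n = 3), or a log2 fold change of -2.30 (SE 0.55). In edgeR's quasi-likelihood test the adjusted p was 0.106 (unadjusted 0.0039), which did not pass the limit of 0.05. With culture time as a block the log2 fold change was -2.32 (SE 0.23) with an adjusted p of 0.000742 in edgeR, and the call was made. DESeq2 without the block called it too (adjusted p 0.000787), and limma did not (adjusted p 0.109). Over all alternatives the adjusted p of Ebf4 ranged from 0.000742 to 0.530. At 24 h the order was the opposite, 5.96 CPM in the iBmp2fx/fx library and 8.67 CPM in the library labelled iBmp2ko/ko, a ratio of 1.45 (95% exact interval 1.19 to 1.78). Over all 8 libraries the log2 fold change of Ebf4 was -1.21 (SE 0.66).

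Levels per length, in RPKM (CPM per kilobase of exon), allowed the genes to be ordered. In the iBmp2fx/fx cells Ebf3 led with 9.51 ± 1.81 RPKM, followed by Ebf1 with 3.05 ± 0.634 and Ebf4 with 2.68 ± 1.29 (SD, n = 3). Ebf2 with 0.289 ± 0.150, Zfp521 with 0.0890 ± 0.0102 and Zfp423 with 0.0186 ± 0.0176 RPKM lay below. Ebf1 and Ebf4 did not differ beyond their spread. In the iBmp2ko/ko cells Ebf3 again led with 11.1 ± 1.14 RPKM, and Zfp521 with 2.17 ± 0.619, Ebf1 with 1.78 ± 0.784 and Ebf2 with 1.43 ± 0.486 RPKM followed with overlapping ranges. Ebf4 with 0.537 ± 0.259 RPKM and Zfp423 with 0.00684 ± 0.00742 RPKM were the lowest.

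The summed level of the 4 Ebf genes was close in both lines, and the share of each gene in it is described. Shares of a sum are tied together, so that a lower share of some genes raises that of others. For Ebf3 the highest iBmp2fx/fx share (68.5%) and the lowest iBmp2ko/ko share (69.8%) were close, and the Ebf1 shares overlapped. The sum was 15.5 ± 1.28 RPKM in the iBmp2fx/fx and 14.8 ± 1.59 RPKM in the iBmp2ko/ko cells (SD, n = 3). Ebf3 made up 61.0 ± 8.29% and 74.8 ± 6.23% of it, and Ebf1 19.9 ± 5.57% and 11.9 ± 4.84%. Ebf4 made up 17.1 ± 7.94% in the iBmp2fx/fx cells and 3.63 ± 1.81% in the iBmp2ko/ko cells, and Ebf2 1.92 ± 1.15% and 9.64 ± 3.19%. In the 24 h library labelled iBmp2ko/ko, Ebf4 was 16.1% and Ebf2 0.830% of a sum of 16.7 RPKM. Both shares were nearer to the iBmp2fx/fx means, whereas Ebf3 with 69.1% and Ebf1 with 14.03% were nearer to the iBmp2ko/ko means.

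**Figure D3:**
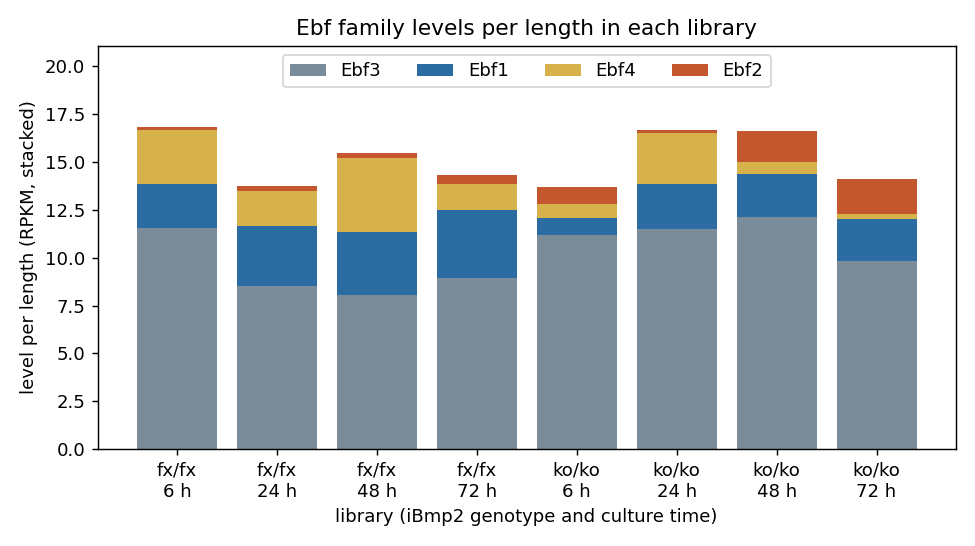
Level per length (RPKM, stacked from 0) of the 4 Ebf genes in each of the 8 libraries, labelled by genotype and culture time (h). The Ebf2 segment was 9.64% of the stack on average in the iBmp2ko/ko libraries of 6, 48 and 72 h, against 1.92% in the iBmp2fx/fx libraries of these times.

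The members were chosen from their counts across genotype and culture time, so that their change with time is described without a test as well. The ratio of 72 h to 6 h compares single libraries. For Ebf1 it was 1.52 (95% exact interval 1.38 to 1.67) in the iBmp2fx/fx cells and 2.50 (2.15 to 2.92) in the iBmp2ko/ko cells. For Ebf2 it was 2.65 (1.63 to 4.44) and 2.05 (1.62 to 2.60). Both genes had higher levels at 72 h than at 6 h in each line. For Ebf3 the ratio was 0.775 (0.724 to 0.830) and 0.879 (0.817 to 0.945), and for Ebf4 0.480 (0.388 to 0.591) and 0.333 (0.190 to 0.558), below 1 in both lines. For Zfp521 it was 1.24 (0.603 to 2.57) in the iBmp2fx/fx cells, an interval that holds 1, and 0.560 (0.478 to 0.654) in the iBmp2ko/ko cells.

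In the fit over both genotypes, the log2 level of Ebf1 changed by 0.27 (SE 0.07) and that of Ebf2 by 0.30 (SE 0.10) per doubling of culture time. The slope was -0.10 (SE 0.09) for Zfp521 and -0.08 (SE 0.05) for Ebf3. Without the iBmp2ko/ko library of 6 h the slope was 0.038 for Zfp521, 0.16 for Ebf1 and -0.14 for Ebf3. Without the iBmp2fx/fx library of 6 h it was -0.19 for Zfp521 and -0.02 for Ebf3, and without the iBmp2ko/ko library of 72 h -0.03 for Zfp521. Ebf4, outside the chosen set, had a slope of -0.19 (SE 0.17, edgeR adjusted p 0.511), which did not pass and ran from -0.34 to -0.08 with 1 library left out. Over all genes tested, 0 of 13121 passed the adjusted limit in edgeR (0%) and 0 in limma, while 2775 (21.1%) had an unadjusted p under 0.05. Without the iBmp2ko/ko library of 48 h, 196 genes passed in edgeR.

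The lines were also compared in their change with time. The slope in iBmp2ko/ko minus that in iBmp2fx/fx cells was -0.28 (SE 0.18) for Zfp521 and 0.22 (SE 0.13) for Ebf1. For Ebf2 it was -0.06 (SE 0.22) and for Ebf3 0.09 (SE 0.12). For Ebf4 it was -0.19 (SE 0.38, edgeR adjusted p 1). Over all genes, 0 passed in edgeR (0%), and 63 (0.48%) had an unadjusted p under 0.05, in a fit with 2 residual degrees of freedom.

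The genes around each member were looked at for a change shared by the region. Next to Zfp521, the nearest tested genes were Impact at 694 kb, with a log2 fold change of 0.58 (edgeR adjusted p 0.543), and Ss18 at 651 kb, with 0.11 (adjusted p 0.878). None of the 7 tested genes within 1 Mb was called, and the median over the 336 tested genes of its chromosome was 0.17. For Ebf2, none of the 12 tested genes within 1 Mb was called, and its neighbours Ppp2r2a and Cdca2 had values of 0.07 and 0.30. For Ebf1, with Rnf145 (0.10) and Clint1 (-0.29) beside it, 1 of 8 was called, Adra1b (-1.84, edgeR adjusted p 0.0488, named after its values were seen). For Ebf3, with Mgmt (0.38) and 9430038I01Rik (0.31) beside it, 0 of 3 were called. For Zfp423, between N4bp1 (0.25) and Tmem188 (0.02), 0 of 11 were called. For Ebf4, between Idh3b (-0.04) and Cpxm1 (-0.04), 0 of 35 were called. Over all genes 2.19% were called, where a call needs an edgeR adjusted p of at most 0.05 and a log2 fold change of at least 1 in size, and 7.35% passed with an unadjusted p under 0.05. On the opposite strand, Gm12158 within Ebf1 had 0 to 8 counts and Gm6878 within Ebf2 0 to 5.

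The partners and targets known for these factors were described on 7 lists of 105 distinct genes, of which 75 were tested. Over the lists, 1 gene was called higher and 8 lower in the iBmp2ko/ko cells, against 0.899% and 1.29% of all genes tested. With culture time as a block, 2 were called higher and 21 lower in edgeR, against 3.78% and 4.67% of all genes. DESeq2 called 2.07% of all genes higher and 2.95% lower, and limma 0.876% and 1.33%. The median log2 fold change of all genes tested was 0.03. At 24 h, the difference had the same sign for 2 of the 9 called genes, Lpl and Alpl. The number called lower was 1 without the iBmp2ko/ko library of 48 h, 2 without the iBmp2fx/fx library of 48 h, 3 without the iBmp2ko/ko library of 6 h and 14 without that of 72 h. Over all 8 libraries, 0 were called in edgeR, while 2 higher and 7 lower passed with an unadjusted p under 0.05.

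Of the NuRD subunits, the corepressor complex that Zfp521 recruits, all 13 were tested. In edgeR 0 were called, 0 had an unadjusted p under 0.05 with that fold change, and 0 were called by DESeq2 or limma. Their median log2 fold change was -0.05, with a range of -0.96 to 0.52. The remodelling ATPase Chd4 was at 471 ± 80.5 and 421 ± 91.2 CPM (SD, n = 3), or a log2 fold change of -0.18, and the histone-binding subunit Rbbp4 had -0.05. With the block, 1 subunit was called lower in edgeR, Gatad2b, named after its values were seen.

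Of 20 adipogenic genes, 11 were tested, with a median log2 fold change of -0.46. Lpl, the lipase of fat tissue, rose from 9.96 ± 2.63 to 109 ± 28.2 CPM (SD, n = 3), or a log2 fold change of 3.45 (SE 0.30, edgeR adjusted p 0.00534). Cebpa, a transcription factor of adipocyte differentiation, fell from 15.8 ± 7.23 to 2.70 ± 0.275 CPM, with a log2 fold change of -2.54 (SE 0.37, edgeR adjusted p 0.0213). The 1 gene that rose and the 1 that fell thus moved in opposite directions. Cebpa was not called in edgeR without either library of 6 h or either of 48 h. With the block 3 were called lower. The additional genes, named after their values were seen, were Pparg (-1.87), the master factor of fat cells, and the fatty acid carrier Fabp4 (-1.10). At 24 h, Lpl was at 8.87 CPM in the iBmp2fx/fx library and 10.8 CPM in the library labelled iBmp2ko/ko, and Cebpa at 10.7 and 11.9 CPM.

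Of 22 skeletal and dental matrix genes, 16 were tested, 2 fell and 0 rose in edgeR, with a median of -0.61. With an unadjusted p under 0.05, 4 were lower and 0 higher, and DESeq2 called 4 lower and 0 higher, limma 2 and 0. Dlx3, a homeobox factor of tooth and bone, had 296 reads in the iBmp2fx/fx and 2 in the iBmp2ko/ko libraries of 6, 48 and 72 h. The ratio was 0.00748 (exact 95% interval 0.000901 to 0.0272), with an edgeR adjusted p of 0.0130. Dlx3 passed the filter on low counts through the iBmp2fx/fx libraries alone, and with at least 10 counts in every library 1 gene of the list was called lower. Alpl, the alkaline phosphatase of mineralizing cells, fell from 41.7 ± 25.8 to 0.873 ± 0.497 CPM (SD, n = 3), with an edgeR adjusted p of 0.0153. Neither was called in edgeR without the iBmp2ko/ko library of 6 h or either library of 48 h. With the block 4 were called lower, among them the osteoblast factor Sp7 and the receptor Pth1r, both named after their values were seen. Sp7 averaged 0.123 CPM in the iBmp2ko/ko libraries, near the floor of 3 counts. Like Dlx3, it passed the filter through the iBmp2fx/fx libraries alone.

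Of the 19 BMP-Smad genes, all were tested, and 5 fell and 0 rose in edgeR, with a median log2 fold change of -1.89. One had an unadjusted p under 0.05 with a rise, and DESeq2 called 1 higher and 11 lower, limma 0 and 8. The number called lower was 4 without the iBmp2fx/fx library of 6 h, 3 without the iBmp2ko/ko library of 6 h, 2 without the iBmp2fx/fx and 1 without the iBmp2ko/ko library of 48 h, and 10 without the iBmp2ko/ko library of 72 h. Over all 8 libraries it was 0 in edgeR, with 2 at an unadjusted p under 0.05. The study itself chose Id and Smad genes on these samples, so that the list is not independent evidence of its direction. Hey1, a target of BMP and Notch signals, fell from 23.5 ± 6.36 to 0.271 ± 0.165 CPM (SD, n = 3), or a log2 fold change of -6.42 (SE 0.52, edgeR adjusted p 0.00502). It had 13, 3 and 7 reads in the iBmp2ko/ko libraries of 6, 48 and 72 h. Hey1 thus passed the filter on low counts through the iBmp2fx/fx libraries alone. With at least 10 counts in every library, 4 genes of the list were called lower. The receptor-regulated Smad9 (-3.45, adjusted p 0.00534), the inhibitory Smad6 (-2.84, adjusted p 0.00650) and the transcription factor Atoh8 (-2.95, adjusted p 0.0210) fell in edgeR as well. The fifth was Id4 (-3.55, edgeR adjusted p 0.0213), named after its values were seen. At 24 h all 5 had the opposite order, with higher levels in the library labelled iBmp2ko/ko. There Hey1 was at 24.5 CPM against 6.25 CPM in the iBmp2fx/fx library, and Smad9 at 114 against 95.5 CPM. With the block 12 were called lower and 1 higher, the pseudoreceptor Bambi, also named after its values were seen.

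**Figure D4:**
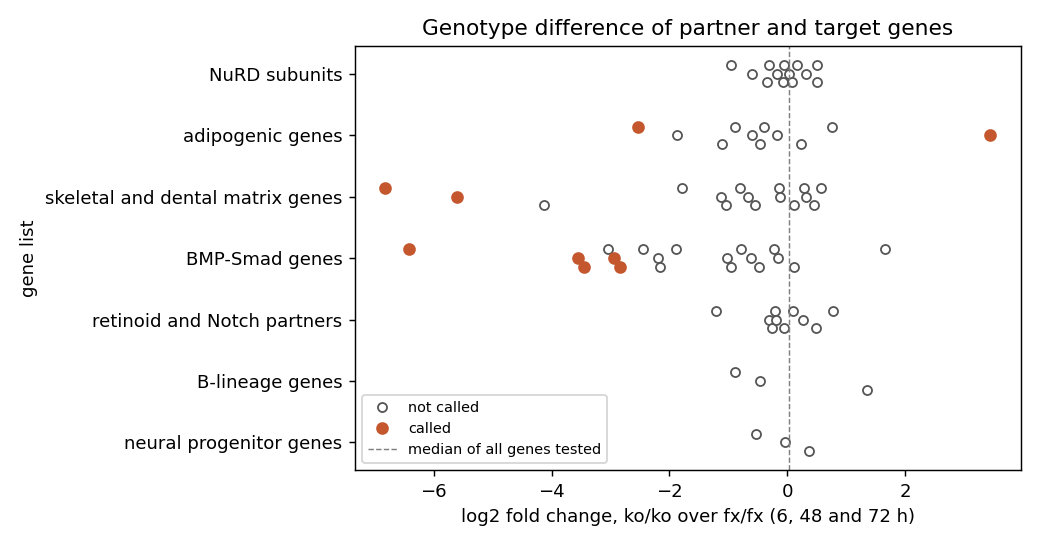
Log2 fold change (iBmp2ko/ko over iBmp2fx/fx, 6, 48 and 72 h) of each tested gene on the 7 lists, 1 circle per gene, filled where the edgeR test was passed, with a dashed line at the median of all genes tested (0.03). The BMP-Smad genes had 5 filled circles on the lower side, and the NuRD subunits none.

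On the remaining lists no gene was called by edgeR without the block over the 6 libraries, or by limma. Of 10 tested retinoid and Notch partners, DESeq2 called 1 lower and edgeR with the block 1 (Hes1, named after its values were seen). Without the iBmp2ko/ko library of 72 h, edgeR called 1 lower as well. Over the 6 libraries, 1 had an unadjusted p under 0.05 with a fall, and the median log2 fold change was -0.13, with values of -0.32 for Rarg and 0.26 for Parp1. Of 12 B-lineage genes, which Ebf1 switches on in lymphocytes, 3 were tested, and their median was -0.46, with -0.89 for Foxo1, -0.46 for Vpreb1 and 1.35 (SE 0.76) for Blnk, the last named after its values were seen. Of 8 neural progenitor genes 3 were tested, with a median of -0.04 and -0.53 for Nes. For these last lists DESeq2 called 0 genes and 0 had an unadjusted p under 0.05 with a log2 fold change above 1 in size.

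Markers of other cells were summed beside the members. The B-lineage sum was 35.8 to 50.5 CPM in the iBmp2fx/fx and 19.0 to 30.9 CPM in the iBmp2ko/ko libraries. It was mainly Foxo1, and 8 of the 12 genes had at most 3 counts in any library. Schwann and neural markers summed to 21.3 to 43.3 and 44.8 to 61.8 CPM, mainly Tubb3, and Sox10 had at most 3 counts. Blood markers summed to 4.28 to 14.3 and 2.81 to 3.50 CPM, and Ptprc had at most 2 counts. Pericyte markers summed to 795 to 1171 and 1043 to 2019 CPM, mainly Acta2 and Pdgfrb, with Abcc9 and Kcnj8 at 0. The pericyte marker Cspg4 had the opposite direction and fell from 0.746 to 0.142 CPM (log2 fold change -2.37, edgeR adjusted p 0.0441). It had 4 reads in each iBmp2ko/ko library of 6, 48 and 72 h, near the floor of 3 counts. Cspg4 thus passed the filter on low counts through the iBmp2fx/fx libraries alone. Epithelial markers summed to 0.909 to 1.93 CPM, endothelial markers at 1.98 to 5.55 CPM and olfactory neuron markers at 1.89 to 5.91 CPM over both groups. Within these sums, with culture time as a block, edgeR called the epithelial Trp63 (2.90) and the endothelial Tek (1.62) higher and the epithelial Krt14 (-1.39) and the endothelial Kdr (-1.32) lower. It also called the olfactory neuron marker Gap43 (1.40) higher and the blood markers Cd68 (-1.43) and Csf1r (-1.62) lower. Without the block it called none of these. Trp63 averaged 0.0849 CPM in the iBmp2fx/fx libraries, under the floor of 3 counts. It passed the filter on low counts through the iBmp2ko/ko libraries alone. The part of these marker genes and of the mesenchymal markers in the members' differences was not tested.

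The genes most alike each member in their pattern over the 8 libraries were ranked by Pearson's r of log2 CPM among 13053 genes. With 8 libraries that share 2 lines, high values are frequent, and they are given as a description. For Zfp521 they were Cdc42ep5 (0.992), Vhl (0.992), Gulp1 (0.990) and Hoxc10 (0.990). For Ebf2 they were Trim8 (0.992), Lancl2 (0.985), Hs6st2 (0.981) and Cdh11 (0.980), and for Ebf1 Lancl3 (0.992), Faf2 (0.991), Casp8ap2 (0.990) and Spopl (0.990). For Ebf3 the values were lower, with Aplf (0.971), Cntn2 (0.957), Plekhf2 (0.956) and Xcr1 (0.949). For Ebf4 they were Ccdc74a (0.993), Cygb (0.992), Phldb1 (0.991) and Anpep (0.989).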

How the data were processed

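The authors aligned reads with TopHat2 2.0.8b to mm9 after CASAVA 1.8.2, counted them with HTSeq, and deposited unnormalized counts per gene symbol. The annotation and strand setting are not given in the sources used here. The labels name unpaired reads of 50 bases, where the study's methods name paired reads, and the series design text gives 8 h in place of 6 h. The 5 HTSeq summary rows were left out. Between 41.3 and 49.6% of alignments were not unique, so genes with close copies may be undercounted.

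The members and lists were chosen with earlier results of these data known. CPM (TMM) and RPKM were computed here, with exon lengths and positions from GENCODE M1, which matched 95.7% of symbols. Tests used edgeR 4.0.16 in R 4.3.3 (quasi-likelihood, Benjamini-Hochberg, at least 10 counts and 15 in total, prior count 2), on the 6 libraries of 6, 48 and 72 h. Time was log2 of hours. The alternatives included all 8 libraries, culture time as a block, DESeq2 1.42.0, limma 3.58.1 (offset 0.5), other filters and scalings, and leaving out each library. Libraries of 1 culture time deviated together (correlations 0.71, 0.54 and 0.84), which pairs them. Tests were tried on simulated data. Named were the members, Ebf4, Bmp2, the 4 genes most alike, the flanking genes, and up to 4 called genes per list, otherwise the 2 most abundant, of which 1 is not reported here. Figures used Python 3.11.15 and matplotlib 3.10.9.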

Additional observations from a re-analysis of the deposited data

Results flagged for a closer look

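Ebf1 in the iBmp2ko/ko library of 6 h, at 8.57 CPM, stood apart from the other 3 libraries of its group, with a gap of 0.906 of the group's range, past Dixon's 95% critical value. Of 12 groups of 4 libraries looked at, 1 was past it, where chance passes about 1 in 20. This is a description, since the members were chosen from these counts. The group holds the 24 h library that stood apart, and the 6 h library was the lowest for Ebf1 in both lines.

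At 24 h, Ebf2 differed by -0.96 on the log2 scale (iBmp2ko/ko minus iBmp2fx/fx), where it was higher in the knock-out line at 6, 48 and 72 h. Ebf4 differed by 0.54 at 24 h, where it was lower at the other times. Whether the difference at 24 h departs from the other times was not tested, because each rests on 1 library per genotype.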

How the results depend on the processing

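The counts of calls depended on the fit. Over all genes, 118 were called higher and 169 lower, 434 and 530 with an unadjusted p under 0.05, 272 and 387 in DESeq2, and 53 and 91 with at least 10 counts in every library. With the replicate block of culture time they were 496 and 613 over 6 libraries, and 9 and 28 over 8. Over all 8 libraries without the block, 0 and 0 were called in edgeR, against 271 and 192 with an unadjusted p under 0.05. Leaving out 1 library gave 3 to 187 higher and 6 to 191 lower.

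For the 7 lists, 1 higher and 8 lower became 2 and 18 with an unadjusted p and also in DESeq2, 2 and 21 with the replicate block, 0 and 1 with that block over 8 libraries (edgeR, 3 and 18 unadjusted), and 0 and 0 over all 8 libraries. Leaving out 1 library gave 1 to 1 higher and 1 to 14 lower.

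The Zfp521 log2 fold change of 4.60 was 4.18 over all 8 libraries, 3.81 with the replicate block over 8, and 4.36 to 4.78 with 1 library left out. For Ebf1 the latter range was -1.01 to -0.47, for Ebf2 2.01 to 2.80, for Ebf3 0.10 to 0.36 and for Ebf4 -2.63 to -1.94. Over all 8 libraries the values were -0.68, 1.96, 0.27 and -1.21, and with the replicate block over 8 they were -0.75, 1.68, 0.28 and -1.63. The Zfp521 time slope ran from -0.19 to 0.038 with 1 library left out, and the positive value came without the iBmp2ko/ko library of 6 h. The cause was not tested. The slope of Ebf1 ran from 0.16 to 0.39, of Ebf2 from 0.24 to 0.32, of Ebf3 from -0.14 to -0.02 and of Ebf4 from -0.34 to -0.08. The trend over all genes called 1 gene over 8 libraries, 4 with time in hours and 196 without the iBmp2ko/ko library of 48 h. With 16 to 19 reads for Zfp521 in each iBmp2fx/fx library and 10 reads of Zfp423 over those of 6, 48 and 72 h, counting error is wide at these levels.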
